A study of Mus musculus with 6 samples.

Results

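The transcripts of 10 cytokines and chemokines that B cells can make were examined in activated splenic B cells with and without hnRNPL, a nuclear RNA-binding protein that acts in splicing and other steps of mRNA processing. The genes were *Tnf*, *Lta*, *Ltb*, *Il6*, *Il10*, *Il12a*, *Ebi3*, *Ccl3*, *Ccl4* and *Ccl22*, taken by gene name as 10 of the 55421 genes in the count table. The mice carried *CD21-cre* and the *Rosa mT/mG* reporter, and were either otherwise unmodified at *Hnrnpl* (WT, 3 mice) or homozygous for the floxed allele, *Hnrnpl F/F* (hnRNPL-deficient, 3 mice). Their splenic B cells were stimulated in culture with 5 μg/ml LPS plus 5 ng/ml IL-4. GFP+ cells were sorted after 24 h, and polyadenylated RNA was sequenced as 1 library per mouse from the same number of cells. Both groups thus shared the Cre transgene, the reporter and the stimuli. *CD21-cre* acts mostly in mature B cells, and GFP marks cells in which Cre was active and their progeny. The study drew on mice of both sexes that were over 6 weeks old, the sex and exact age of each sequenced mouse were not analysed here, and no unstimulated library was compared.

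B cells activated through Toll-like receptors secrete cytokines besides antibody. LPS signals through TLR4 to NF-κB and the MAP kinases, which switch on *Tnf*, *Il6* and the CC chemokine genes, while IL-4 signals through STAT6. Most of these mRNAs are short-lived, and AU-rich elements in their 3′ untranslated regions (UTRs) are bound by proteins that speed or slow their decay. B cell IL-6 supports T follicular helper cells and plasma cells, IL-10 from B cells restrains inflammation, and lymphotoxins from B cells organize lymphoid tissue.

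The targeted gene was checked before the cytokines. *Hnrnpl* lay between 24174 and 25579.7 normalized counts across WT libraries and between 1297 and 2178 across hnRNPL-deficient ones, where its mean was 6.74% of the WT mean. Normalized counts are reads per gene divided by a size factor for each library. The libraries held from 40395186 to 75180749 reads on genes, with hnRNPL-deficient library 3 the shallowest. B cell markers such as *Cd79a* and *Pax5* were high in every library. The list of 7 B cell markers summed to between 277632 and 355972 normalized counts in WT and between 271886 and 322100 in hnRNPL-deficient libraries. Of these markers 1 was called higher and 0 lower. Of the 9 macrophage or monocyte markers, *Adgre1* rose (mean 278 to 1308 normalized counts, log2 fold change 2.24, limma adjusted p = 1.39e-04), and it raised the summed level of that list from between 629 and 769 in WT to between 1698 and 1827. *Cd68* averaged 369 in WT against 423 and was not called (limma adjusted p = 0.401). The other 7 markers summed to between 25.1 and 48.7 normalized counts in WT and between 34.3 and 57.7 in hnRNPL-deficient libraries. Among them *Lyz2* and *Cd14* were at 0 in all WT libraries and were detected only in the hnRNPL-deficient group. The T cell list summed to between 27.5 and 32.9 in WT and between 32.3 and 44.2 in hnRNPL-deficient libraries. The dendritic cell list summed to between 648 and 787 in WT and between 637 and 685 in hnRNPL-deficient libraries. In it *Itgax*, *Clec9a* and *Siglech* were at 0 throughout. The plasmablast list summed to between 33957 and 39571 in WT and between 33296 and 36361 in hnRNPL-deficient libraries. Of its 5 markers only *Jchain* was called, and it fell (84.1 to 14.7 normalized counts, limma adjusted p = 0.0509). The neutrophil list summed to at most 2.74. *Xcr1*, *Prf1* and *Hbb-bt*, markers of dendritic cells, NK cells and erythroid cells, were also called higher, at means of no more than 57.0 normalized counts, which left the NK cell list at 26.8 to 39.5 in WT against 46.4 to 73.0 and the erythroid list at 17.6 to 38.3 against 55.0 to 84.8; their part in the cytokine results was not tested.

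In this comparison, the cytokine transcripts moved in different directions. *Il6* rose, whereas *Lta*, *Il10* and *Ccl3* fell. A gene was called when limma gave a Benjamini-Hochberg adjusted p under 0.1, over all 17640 genes whose mean reached 10 normalized counts, together with a change of at least 1.5-fold. Of the 10 genes, 9 passed the filter on low values and *Ccl4* did not. Of the 9, 1 was called higher and 3 were called lower, and their median log2 fold change was 0.16, against -0.03 over all genes tested. Among all genes tested, 11.4% were called, with 7.28% higher and 4.08% lower. The groups were fully separated for *Il6* and *Ltb*, which were higher in every hnRNPL-deficient library, and for *Tnf*, *Lta*, *Il10* and *Ccl3*, which were lower in every one. Such a separation was seen for 34.0% of all genes tested. In bulk RNA, fewer cells making a transcript and less of it in each cell cannot be told apart.

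**Figure D1:**
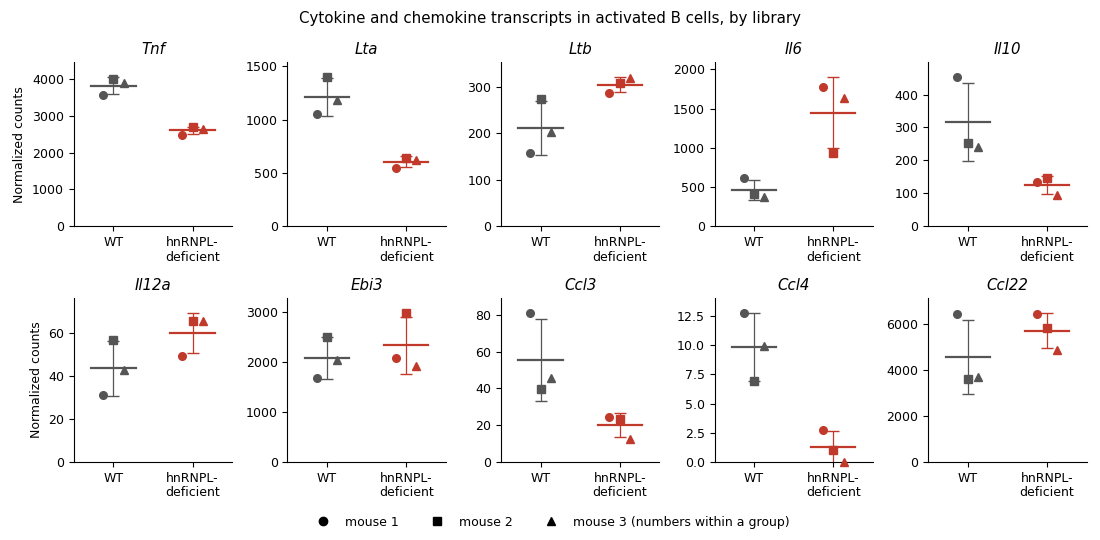
Normalized counts (y axes, each from 0) of the 10 genes in WT (grey) and hnRNPL-deficient (red) libraries, 1 symbol per mouse, with the mean as a horizontal bar and the SD as a vertical line (n = 3 mice each). *Il6* and *Ltb* lie higher and *Tnf*, *Lta*, *Il10*, *Ccl3* and *Ccl4* lie lower in all 3 hnRNPL-deficient libraries, while *Il12a*, *Ebi3* and *Ccl22* overlap between the groups.

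The TNF family members were considered first. *Tnf*, *Lta* and *Ltb* lie side by side on chromosome 17 within the major histocompatibility complex, with no other protein-coding gene between them. In GRCm38, *Ltb* spans 35194439 to 35196320 on the plus strand, *Tnf* 35199381 to 35202007 on the minus strand and *Lta* 35203165 to 35205351 on the minus strand. The gaps are 3060 bp between *Ltb* and *Tnf* and 1157 bp between *Tnf* and *Lta*. The miRNA genes *Mir6973a* and *Mir6974* overlap 78 bases of *Ltb* and 83 bases of *Lta* on the same strand.

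*Lta* encodes lymphotoxin alpha, which is secreted as a homotrimer that binds the TNF receptors, or joins lymphotoxin beta at the cell surface. Its WT libraries 1, 2 and 3 held 1051, 1398 and 1187 normalized counts, and its hnRNPL-deficient libraries 546, 642 and 625. All hnRNPL-deficient values were thus below the lowest WT value, and they were close together. The mean of the 3 mice per group was 1212 ± 175 for WT against 604 ± 51.1 (SD) for hnRNPL-deficient cells. This was a difference of -0.996 ± 0.14 on the log2 scale (standard error, limma adjusted p = 0.00444). *Lta* was called lower in all 17 alternative analyses at these thresholds, and it missed a 2-fold threshold.

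*Tnf* encodes the inflammatory cytokine TNF, which is made as a membrane protein and shed by ADAM17. It had 3553, 3994 and 3894 normalized counts in WT and 2484, 2684 and 2638 in hnRNPL-deficient libraries. The groups did not overlap, and *Tnf* varied least of the 10 genes within each group, with coefficients of variation of 6.05% in WT and 4.03% in hnRNPL-deficient cells. Its mean was 3814 ± 231 in WT and 2602 ± 105 in hnRNPL-deficient cells, or 68.2% of WT. In limma the log2 fold change was -0.55 ± 0.10 (standard error, 95% confidence interval -0.77 to -0.33, limma adjusted p = 0.00949). *Tnf* therefore passed the adjusted p, as did 7.97% of all genes tested in the same direction, but its change was under 1.5-fold and it was not called. Without WT library 1 it was called, with a log2 fold change of -0.60.

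*Ltb* encodes lymphotoxin beta, the membrane anchor of the lymphotoxin heterotrimer. Its values were 157, 273 and 203 normalized counts in WT and 286, 307 and 318 in hnRNPL-deficient libraries. Here the hnRNPL-deficient values were the higher ones, although WT library 2 came close to them. The log2 fold change of 0.56 (95% confidence interval 0.06 to 1.06) missed the threshold (limma adjusted p = 0.144). Without WT library 2 *Ltb* was called higher, at 0.76 (limma adjusted p = 0.0870). Thus, of the neighbours, *Lta* was called lower, *Tnf* was lower without being called, and *Ltb* was higher without being called.

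The 250 bases upstream of the RefSeq starts of *Tnf* and *Lta* (GRCm38.p6, minus strand, *Tnf* at chr17:35202008-35202257 and *Lta* at chr17:35205352-35205601) are shown because these neighbours on the same strand both had lower levels. They are written 5′ to 3′ with the start following the last base, and capitals would mark a match to the motifs searched, of which they hold none.
Tnf promoter: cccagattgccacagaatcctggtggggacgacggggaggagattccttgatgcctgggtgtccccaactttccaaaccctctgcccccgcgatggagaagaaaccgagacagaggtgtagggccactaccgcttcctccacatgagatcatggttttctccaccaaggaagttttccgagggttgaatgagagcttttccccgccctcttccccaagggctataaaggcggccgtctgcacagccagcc
Lta promoter: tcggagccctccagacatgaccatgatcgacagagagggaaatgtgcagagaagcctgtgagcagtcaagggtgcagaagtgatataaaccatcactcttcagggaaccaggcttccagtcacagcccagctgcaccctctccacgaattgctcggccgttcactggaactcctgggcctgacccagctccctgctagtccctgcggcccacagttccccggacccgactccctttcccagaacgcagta
The motifs were the κB consensus GGGRNWYYCC, bound by NF-κB, and the AP-1 motif TGANTCA, each searched on both strands. R, W, Y and N are the standard codes for sets of bases. A site that departs from these letters is not found by the search. Of 32851 RefSeq promoter windows of this length, 3.90% held the κB consensus and 6.75% the AP-1 motif. Upstream of *Ltb* a κB match lay on the minus strand, with its first base at position -87. That position counts from the RefSeq start, and 68 bases of the window lie in *Ltb* exons of the gene model above. The windows of *Ccl3*, *Ccl22* and *Il12a* held no match to either motif.

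*Il6*, which encodes the cytokine interleukin 6, had the largest rise among the 10 genes. It lies on chromosome 5 (30013114 to 30019981, plus strand). The WT libraries held 614, 407 and 374 normalized counts and the hnRNPL-deficient libraries 1779, 932 and 1631. Every hnRNPL-deficient value exceeded the highest WT value, and hnRNPL-deficient library 2 was the lowest of its group. The mean rose from 465 ± 130.0 to 1447 ± 452 (SD, n = 3 mice per group), 3.11 times that of WT (log2 fold change 1.62 ± 0.27, standard error, limma adjusted p = 0.00855). *Il6* was called higher in all 17 alternative analyses, with log2 fold changes from 1.44 to 1.91 after leaving out any 1 library. *Adgre1*, described above, was also higher in hnRNPL-deficient cells, and any link to *Il6* was not tested.

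The RefSeq window upstream of *Il6* (chr5:30012864-30013113, plus strand) is shown because it was the window of a called gene that held matches to both motifs. Capitals mark the AP-1 match, whose first base is at position -249 from the start, and the κB match, at position -44.
Il6 promoter: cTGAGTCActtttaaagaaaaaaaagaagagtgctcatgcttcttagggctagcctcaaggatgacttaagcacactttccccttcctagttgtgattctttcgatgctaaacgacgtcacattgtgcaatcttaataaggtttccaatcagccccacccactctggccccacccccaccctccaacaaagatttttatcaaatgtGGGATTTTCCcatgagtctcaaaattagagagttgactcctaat
A match describes the letters of the window and does not show that a factor binds there.

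*Il10*, whose product dampens the responses of T cells and myeloid cells, moved the other way. It lies on chromosome 1 (131019845 to 131024974, plus strand). It had 453, 252 and 242 normalized counts in WT and 135, 147 and 94.6 in hnRNPL-deficient libraries. The groups did not overlap, and WT library 1 stood well above the other WT libraries. The mean fell from 316 ± 119 to 126 ± 27.7, or 39.8% of WT, with a change of -1.28 ± 0.29 on the log2 scale (standard error, limma adjusted p = 0.0262). Without WT library 1 the change was -0.99, and *Il10* was called lower in all 17 alternative analyses.

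The subunits of the IL-12 family were *Il12a* and *Ebi3*. *Il12a* encodes p35, which pairs with p40 to form IL-12 and with EBI3 to form IL-35, and *Ebi3* encodes a receptor-like chain that pairs with p28 to form IL-27. *Il12a* (chromosome 3, 68690644 to 68698547, plus strand) had 31.3, 57.1 and 42.8 normalized counts in WT and 49.6, 65.6 and 65.8 in hnRNPL-deficient libraries. WT library 2 lay within the hnRNPL-deficient range, and the log2 fold change of 0.48 (95% confidence interval -0.21 to 1.18) was not called (limma adjusted p = 0.347).

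*Ebi3* (chromosome 17, 55952640 to 55957022, plus strand) was among the most abundant of the 10 transcripts. It had 1677, 2507 and 2043 normalized counts in WT and 2084, 2985 and 1924 in hnRNPL-deficient libraries, so the lowest hnRNPL-deficient value lay within the WT range. The log2 fold change was 0.16 (95% confidence interval -0.29 to 0.61, limma adjusted p = 0.638), and its sign turned without hnRNPL-deficient library 2 (-0.03). An antisense gene, *Gm16712*, overlaps 2252 bases of *Ebi3* on the opposite strand, and the authors counted reads by strand. The partner chains outside the 10 genes, p40 and p28, were hardly detected. *Il12b*, which encodes p40, was at 0 in all libraries, and *Il27*, which encodes p28, ranged from 0 to 5.19 normalized counts. *Il23a*, another gene of the IL-12 family, ranged from 0 to 3.03. Upstream of *Ebi3* a κB match began at position -44.

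The chemokines *Ccl3* and *Ccl4*, which attract T cells and myeloid cells, lie 13228 bp apart on chromosome 11 (*Ccl3* 83647844 to 83649355 on the minus strand, *Ccl4* 83662584 to 83664683 on the plus strand). *Ccl3* had 81.2, 39.8 and 45.9 normalized counts in WT and 24.3, 23.2 and 12.3 in hnRNPL-deficient libraries. The groups did not overlap, and WT library 1 was the highest. The mean fell from 55.6 ± 22.4 to 19.97 ± 6.63, with a change of -1.42 ± 0.40 on the log2 scale (standard error, limma adjusted p = 0.0549). This call rested on few reads, from 9 to 70 in the 5 libraries whose reads could be recovered. It was lost after leaving out WT library 1 (log2 fold change -1.12, limma adjusted p = 0.138), WT library 3 (-1.52, limma adjusted p = 0.129) or the shallow hnRNPL-deficient library 3 (-1.12, limma adjusted p = 0.123), and with edgeR (-1.52, adjusted p = 0.102).

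*Ccl4* was under the filter on low values, so it has no test in the comparison. The WT libraries held 12.8, 6.92 and 9.94 normalized counts. There were 2.705 and 1.01 in hnRNPL-deficient libraries 1 and 2, and 0 in hnRNPL-deficient library 3, where a count of 0 allows up to 4.11 normalized counts (3 reads). Every WT value was above every hnRNPL-deficient value. The 3 WT libraries held 32 reads and hnRNPL-deficient libraries 1 and 3 held 3, a ratio of 0.170 after scaling by library (95% exact interval 0.0332 to 0.542). That interval covers counting error only. When the filter was lowered to a mean of 1, the log2 fold change was -2.44 (limma adjusted p = 0.0393).

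*Ccl22*, which encodes a ligand of CCR4 that attracts regulatory and type 2 helper T cells, had the highest mean count of the 10 transcripts in both groups, although *Tnf* exceeded it in WT libraries 2 and 3. It lies on chromosome 8 (94745590 to 94751699, plus strand). The WT libraries held 6422, 3592 and 3687 normalized counts and the hnRNPL-deficient libraries 6423, 5849 and 4882. WT library 1 lay level with the highest hnRNPL-deficient library, while the other WT libraries lay below all of them. The log2 fold change of 0.37 (95% confidence interval -0.13 to 0.87) was not called (limma adjusted p = 0.318). Without WT library 1 it was called higher, at 0.64 (limma adjusted p = 0.0258).

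**Figure D2:**
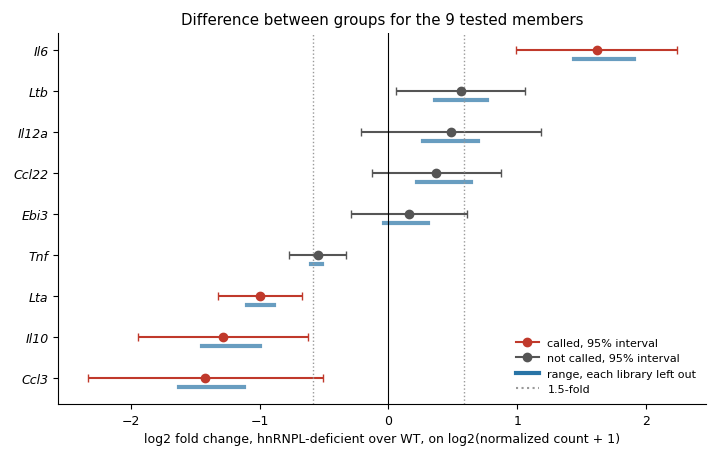
Log2 fold change of hnRNPL-deficient over WT (x axis, on log2(normalized count + 1)) for the 9 genes tested, with 95% confidence intervals from limma (red where called, grey where not), the range when each library was left out (blue) and the 1.5-fold limits (dotted). *Il6* at 1.62 lies to the right of the limits and *Lta*, *Il10* and *Ccl3* to the left, while *Tnf* at -0.55 lies just inside.

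Levels were compared between genes after dividing by the length of the exons in kb. In WT cells *Tnf* was the highest at 2327 ± 141 normalized counts per kb (SD, n = 3 mice), followed by *Ccl22* (1964 ± 691) and *Ebi3* (1798 ± 360.3). *Tnf* overlapped *Ccl22*, and *Ccl22* overlapped *Ebi3*. *Lta* came after *Ebi3* at 876 ± 126, apart from its neighbours on either side. *Il10* (241 ± 90.7), *Il6* (192 ± 53.5), *Ltb* (139 ± 38.7) and *Ccl3* (72.6 ± 29.2) followed with overlap between neighbours, and *Il12a* (25.7 ± 7.58) and *Ccl4* (15.0 ± 4.43) were the lowest.

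The order differed in hnRNPL-deficient cells. *Ccl22* (2459 ± 335 normalized counts per kb) and *Ebi3* (2020.0 ± 495) overlapped each other and stood above *Tnf* (1588 ± 64.0). *Il6* was the fourth at 596 ± 186, overlapping *Lta* at 437 ± 36.9. *Ltb* (200.2 ± 10.8) then stood above *Il10* (96.0 ± 21.1), which was the fifth in WT and the seventh in hnRNPL-deficient cells. *Il12a* was at 35.5 ± 5.47, *Ccl3* at 26.1 ± 8.66 and *Ccl4* at 1.88 ± 2.07. *Ccl22* made up between 28.7% and 45.7% of the summed normalized counts of the 10 genes in WT libraries and between 40.04% and 46.5% in hnRNPL-deficient libraries.

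**Figure D3:**
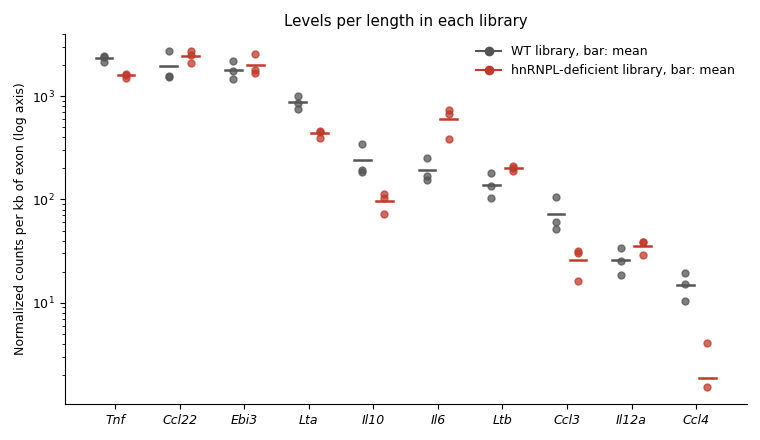
Normalized counts per kb of exon (y axis, log scale) of the 10 genes, ordered by their WT mean, with 1 point per library and the mean as a bar (WT grey, hnRNPL-deficient red, n = 3 mice each). *Tnf* leads in WT at 2327 per kb and *Ccl22* in hnRNPL-deficient cells at 2459 per kb. The hnRNPL-deficient library with *Ccl4* at 0 has no point on the log axis but enters the mean.

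Ratios of paired genes within a library do not depend on the scaling between libraries. The ratio of *Ltb* to *Lta* normalized counts was 0.149, 0.195 and 0.171 in WT and 0.523, 0.478 and 0.509 in hnRNPL-deficient libraries. It was 2.95 times as high by the mean log2 ratio (difference 1.56), and the groups were far apart. *Ltb* alone was higher and *Lta* alone lower in every hnRNPL-deficient library, so this separation follows from the single-gene values and adds no separate evidence. The ratio of *Tnf* to *Lta* was 3.38, 2.86 and 3.28 in WT and 4.55, 4.18 and 4.22 in hnRNPL-deficient libraries, a log2 difference of 0.45. For these neighbours, the transcript of *Lta* was thus lower relative to both *Tnf* and *Ltb* in every hnRNPL-deficient library.

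The ratio of *Il10* to *Il6* lay below the WT range in every hnRNPL-deficient library, at 0.737, 0.620 and 0.646 in WT against 0.0760, 0.158 and 0.0580. The log2 difference was -2.91, a size of 7.51-fold, and lay between -3.326 and -2.602 after leaving out any 1 library. Here too the separation follows from the single-gene values, as *Il10* was lower and *Il6* higher in every hnRNPL-deficient library. The ratio of *Ebi3* to *Il12a* was 53.5, 43.9 and 47.7 in WT and 42.0, 45.5 and 29.3 in hnRNPL-deficient libraries, with overlap (log2 difference -0.33, exact permutation p = 0.2, adjusted 0.2). The other 3 ratios each had a two-sided exact permutation p = 0.1, the smallest that 3 against 3 mice allow, and 0.133 after adjustment over the 4 ratios tested, so no ratio can be called. The ratio of *Ccl4* to *Ccl3* was not tested because *Ccl4* was at 0 in a library.

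**Figure D4:**
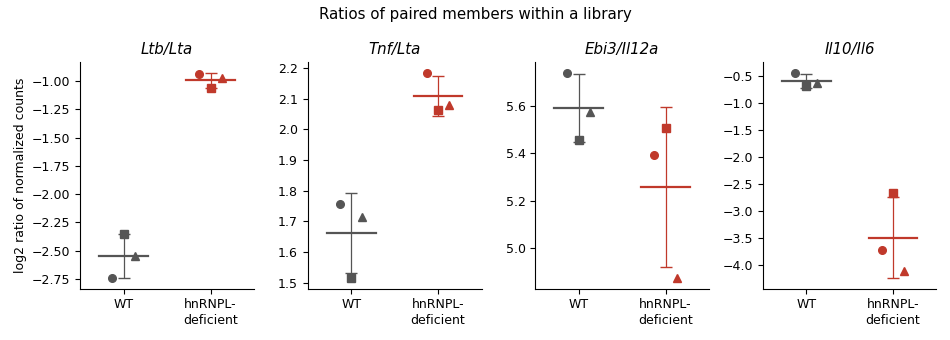
Log2 ratio of normalized counts of 2 genes in the same library (y axes, which differ between panels), with 1 symbol per mouse (circle, square and triangle for mice 1, 2 and 3), the mean as a horizontal bar and the SD as a vertical line (WT grey, hnRNPL-deficient red, n = 3 mice each). *Ltb/Lta*, *Tnf/Lta* and *Il10/Il6* separate the groups and *Ebi3/Il12a* does not.

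AU-rich elements were counted in the longest annotated 3′ UTR of each gene (GENCODE vM21, GRCm38, counted from the stop codon), on the transcript strand and with overlapping copies. The core letters ATTTA were found 10 times in *Il6*, 8 times in *Tnf*, 6 times each in *Il10* and *Il12a*, 5 times in *Ccl3*, 3 times in *Lta*, 2 times each in *Ccl4* and *Ccl22*, once in *Ebi3* and 0 times in *Ltb*. Per kb of UTR this was 12.2 for *Ccl3*, 12.1 for *Il12a*, 10.5 for *Tnf*, 8.50 for *Il10*, 6.62 for *Ccl4*, 5.995 for *Il6*, 5.24 for *Lta*, 4.08 for *Ebi3*, 1.103 for *Ccl22* and 0 for *Ltb*, against a median of 1.31 over 11410 tested genes with an annotated 3′ UTR. The genes called in either direction, *Il6* on the one hand and *Lta*, *Il10* and *Ccl3* on the other, all held copies, as did 69.9% of the 11410 genes. The longer motif TTATTTATT, which contains ATTTA, was found 5 times in *Tnf* and once each in *Lta* and *Il12a*, and at least once in 8.19% of the 11410 genes. The CA repeat ACACACA, a kind of sequence that hnRNPL is known to bind, was found in none of the 10 UTRs. This says only that these letters are not in these UTRs. Of the 11410 genes, 22.3% held it, but these shares were not matched for length. The median UTR of the 11410 genes was 1166.5 bases long. Of the 10 UTRs only those of *Il6* (1668 bases) and *Ccl22* (1813 bases) were longer, and that of *Ltb* was the shortest (174 bases).

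The 30 bases around the longer motif are shown for the genes that hold it, in GRCm38, 5′ to 3′ on the transcript strand with T for U and the motif in capitals. They come from chr17:35199688-35199717 (minus strand) for *Tnf*, chr17:35203395-35203424 (minus strand) for *Lta* and chr3:68698436-68698465 (plus strand) for *Il12a*.
Tnf: tttgcacttaTTATTTATTATTTATTTATT
Lta: aaaagttaagTTATTTATTtatagagaata
Il12a: ctatttatatTTATTTATTttctatttatt
In *Tnf* the copies overlap into an unbroken run, whereas *Lta* and *Il12a* hold a single copy.

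The receptors of these cytokines were examined next. Of 14 receptor genes 11 were tested, of which 2 were called higher and 2 lower, with a median log2 fold change of -0.10. *Il27ra*, the signaling chain for IL-27, fell from 597, 929 and 736 to 215, 243 and 174 normalized counts, or by a log2 fold change of -1.82 ± 0.21 (standard error, limma adjusted p = 0.00165). *Il6ra*, the ligand-binding chain for IL-6, fell from 622, 602 and 603 to 334, 387 and 369 (log2 fold change -0.75, limma adjusted p = 0.0105). Both separated the groups and were called in all 17 alternative analyses, while the shared signaling chain *Il6st* had a log2 fold change of -0.10 (limma adjusted p = 0.611).

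*Il10ra*, the ligand-binding chain for IL-10, rose from 1697, 2328 and 2050.3 to 3044, 3515 and 2940.0 normalized counts (log2 fold change 0.65, limma adjusted p = 0.0205). Its change was under 1.5-fold when WT library 1 (0.53) or hnRNPL-deficient library 2 (0.57) was left out. *Ccr4*, the receptor for CCL22, rose from 5.80, 5.19 and 6.88 to 37.0, 33.3 and 9.59 normalized counts (log2 fold change 1.79, limma adjusted p = 0.0669), but it was called in only 8 of 16 alternatives. Each library except hnRNPL-deficient library 3 ended that call when left out, with limma adjusted p values of up to 0.186. Thus *Il6* rose while *Il6ra* fell, and *Il10* fell while *Il10ra* rose, the latter called in 14 of 17 alternatives. The partner chain *Il10rb* had a log2 fold change of 0.24 (limma adjusted p = 0.356).

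*Tnfrsf1b*, which encodes TNF receptor 2, was abundant in all libraries (5821, 5631 and 5529.8 in WT and 4335, 4672 and 4553 in hnRNPL-deficient libraries). It passed the adjusted p (0.0466, limma) at a log2 fold change of -0.33, under 1.5-fold, and was not called. *Tnfrsf1a*, which encodes TNF receptor 1, and *Ltbr*, the receptor of the lymphotoxin heterotrimer, were near 0, at no more than 2.59 and 3.82 normalized counts. *Il12rb1*, a chain of the IL-12 and IL-23 receptors, had a log2 fold change of -0.61 (limma adjusted p = 0.148) and was not called, although it was called lower in 3 of 17 alternatives, with an adjusted p down to 0.0318. *Tnfrsf14* and *Ccr1* were not called either.

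Other cytokine and chemokine genes were listed as well. Of 48 listed, 12 were at 0 in every library, among them *Il4*, *Il13* and *Ccl2*, while 23972 of all 55421 genes (43.3%) were. With these, 32 (66.7%) were under the filter on low values, against 68.2% of all genes. The remaining 16 were tested, of which 2 were called higher and 2 lower (median log2 fold change -0.20). *Csf2*, which encodes GM-CSF, rose from 16.2, 4.32 and 3.06 to 139.7, 82.8 and 196 normalized counts, with a change of 4.20 ± 0.57 on the log2 scale (standard error, limma adjusted p = 0.00358). *Cxcl10*, an interferon-induced chemokine, fell from 1349.7, 882 and 760.1 to 362, 297 and 414 (log2 fold change -1.45, limma adjusted p = 0.00646). Both were called in all 17 alternatives.

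*Tgfb1*, which encodes TGF-β1, fell (log2 fold change -0.60, limma adjusted p = 0.0366) and *Csf1*, which encodes M-CSF, rose (0.59, limma adjusted p = 0.0918). Both lay close to the 1.5-fold limit, and they were called in 12 and 6 of 17 alternatives. Leaving out any of 3 libraries ended the *Tgfb1* call. These were WT library 2 (limma adjusted p = 0.116), WT library 3 (0.121) and hnRNPL-deficient library 3, where the change was -0.44. *Csf1* was not called without any library other than hnRNPL-deficient library 3 (adjusted p from 0.148 to 0.241).

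All 18 genes listed as cytokine mRNA stability factors were tested, of which 1 was called lower and 0 higher (median log2 fold change -0.18). With no threshold on the fold, 1 was higher and 4 were lower at an adjusted p under 0.1, against 10.0% and 7.97% of all genes tested. *Hnrnpd*, which encodes the AU-rich element binding protein AUF1, fell from 19431 ± 2101 to 12281 ± 549 normalized counts (log2 fold change -0.66, limma adjusted p = 0.00703). Its change was under 1.5-fold without WT library 1 (-0.58). The other 4 that passed the adjusted p were under 1.5-fold. They were *Zc3h12c*, of the regnase family (log2 fold change -0.52, limma adjusted p = 0.0139), *Zfp36l2*, a relative of tristetraprolin (-0.37, 0.0636), *Tial1*, which encodes the AU-rich element binding protein TIAR (-0.35, 0.0612), and *Map3k8*, which encodes the kinase TPL2 (0.31, 0.0626). *Zfp36*, which encodes the decay factor tristetraprolin, had a log2 fold change of 0.08 (limma adjusted p = 0.745) and *Zc3h12a*, which encodes regnase-1, had 0.04 (limma adjusted p = 0.879). *Elavl1*, which encodes the stabilizing protein HuR, had -0.19 (limma adjusted p = 0.309).

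Of 25 listed transcription factors of cytokine genes 24 were tested, of which 1 was called higher and 0 lower (median log2 fold change -0.09). *Bhlhe40*, which encodes a repressor of *Il10*, rose from 1609.6, 1270.1 and 1292 to 2375, 2424 and 1833 normalized counts (log2 fold change 0.67, limma adjusted p = 0.0253), with no call without WT library 3 (limma adjusted p = 0.101). *Nfatc2* (log2 fold change -0.54, limma adjusted p = 0.0218) and *Batf* (-0.49, limma adjusted p = 0.0318) passed the adjusted p but were under 1.5-fold. So was *Rela*, an NF-κB subunit (-0.51, limma adjusted p = 0.0993), and the NF-κB subunits *Nfkb1*, *Nfkb2*, *Rel* and *Relb* were not called.

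For the shedding of TNF and proximal receptor signaling, 14 genes were tested, of which 1 was called lower and 0 higher (median log2 fold change -0.01). *Rhbdf1*, which encodes iRhom1, a partner of ADAM17, fell from 135, 157 and 165 to 73.0, 94.9 and 79.5 normalized counts (log2 fold change -0.88, limma adjusted p = 0.0343). That call was lost without WT library 2 (adjusted p = 0.118) or WT library 3 (adjusted p = 0.141). *Adam17* itself had a log2 fold change of 0.02 (limma adjusted p = 0.915). The lists of factors, shedding genes and transcription factors thus had shares called of 5.56%, 7.14% and 4.17%, under the 11.4% over all genes tested. Those of receptors and other cytokines were above it, at 4 of 11 and 4 of 16. These include *Ccr4* and *Csf2*, which passed the filter on low values only through their hnRNPL-deficient libraries. The lists were also chosen with earlier results known, so the shares are descriptions and not tests.

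**Figure D5:**
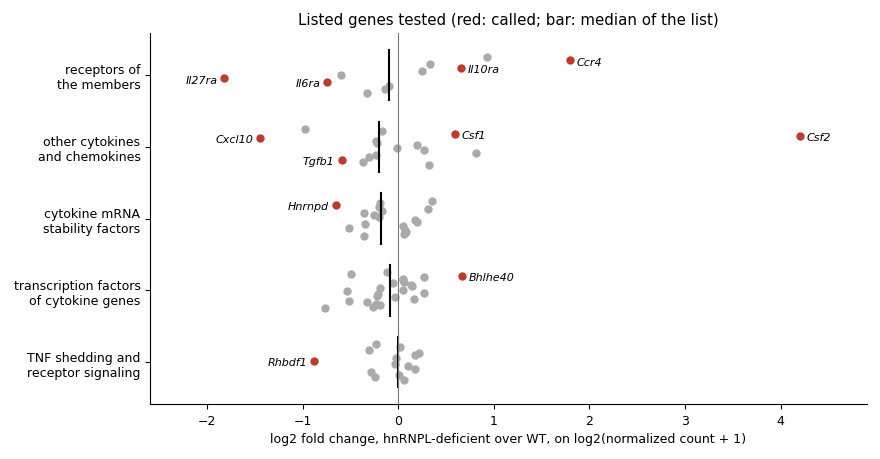
Log2 fold change of hnRNPL-deficient over WT (x axis, on log2(normalized count + 1)) of each tested gene in 5 lists (rows), in red and named where called, with the median of each list as a black bar. *Csf2* at 4.20 lies farthest from 0, and the list medians lie between -0.20 and -0.01.

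For each tested cytokine, the listed gene with the most similar pattern over the 6 libraries was taken by Pearson's r of log2(normalized count + 1), from 83 genes. These were *Csf2* for *Il6* (r = 0.98), *Hnrnpd* for *Il10* (0.96), *Rhbdf1* for *Tnf* (0.99), *Il27ra* for *Lta* (0.98), *Zfp36l2* for *Ccl3* (0.98), *Il10rb* for *Il12a* (0.95) and for *Ltb* (0.94), *Zc3h12a* for *Ebi3* (0.95) and *Bhlhe40* for *Ccl22* (0.81). Between the cytokines themselves, r was highest for *Tnf* and *Lta* (0.995) and for *Il10* and *Ccl3* (0.987), and lowest for *Il6* and *Tnf* (-0.961). These values describe 6 libraries in 2 groups, so a difference between the groups alone gives a high r.

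WT library 1 stood apart from the other WT libraries. It held the highest or the lowest of the 3 WT values for all 10 genes, highest for *Il6*, *Il10*, *Ccl3*, *Ccl4* and *Ccl22* and lowest for *Tnf*, *Lta*, *Ltb*, *Il12a* and *Ebi3*. Over all genes tested, this library was at an end of the WT range for 84.3% of genes, against 63.0% for WT library 2 and 52.6% for WT library 3. Without WT library 1, *Il6*, *Il10* and *Lta* kept their calls, *Ccl3* lost its call, and *Tnf* and *Ccl22* gained a call.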

How the data were processed

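RNA-seq of GFP+ splenic B cells from 3 WT and 3 hnRNPL-deficient mice was analysed. The authors trimmed reads with fastp 0.23.1, aligned them to mm10 with STAR 2.7.9a, counted them per gene and strand with featureCounts, and divided counts by DESeq2 1.38.2 size factors. The deposited values are these normalized counts, a signal per gene that can be fractional. In the same deposited table, the authors' DESeq2 columns hold log2 fold changes and their errors, a test statistic (a score) and p-values; none was used. Whole reads were recovered, to within 0.01 read, in 5 libraries, and not declared for hnRNPL-deficient library 2, where 1 read is worth about 1.01.

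limma 3.58.1 (R 4.3.3) was run on log2(normalized count + 1) with the variance trended on the mean, for genes averaging 10 or more. Fold changes on that scale understate the change of low genes. Alternatives were other pseudocounts, filters and scalings, no trend, the replicate number as a block, each library left out, and edgeR 4.0.16 or DESeq2 1.42.0 on the 5 libraries. limma and edgeR were checked on simulated data. Exact permutation used scipy 1.17.1. The genes and lists were chosen with earlier results of these data known. Every cytokine of the set was named, as were the called genes of each list, the receptors and partner chains, and called markers of other cell types; *Cd68*, *Zfp36*, *Zfp36l2*, *Zc3h12a*, *Zc3h12c*, *Tial1*, *Map3k8*, *Elavl1*, *Nfatc2*, *Batf*, *Rela*, *Adam17* and the other NF-κB subunits, and *Il4*, *Il13* and *Ccl2*, were added after their values were seen.

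Positions, exon lengths and 3′ UTRs come from GENCODE vM21 on GRCm38, the assembly of mm10; the authors used a later release. Promoters come from RefSeq (GRCm38.p6), which has no entry used here for *Il10* and *Ccl4*.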

Additional observations from a re-analysis of the deposited data

How the results depend on the processing

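The calls of *Il6*, *Il10* and *Lta* held under all 17 alternative fits. Of 152 log2 fold changes of the 9 tested genes under alternatives, 142 kept their direction and their side of the threshold, 4 (all *Ccl3*) lost the call, 3 (*Tnf*, *Ltb* and *Ccl22*) gained one and 3 turned in sign, all of *Ebi3*, at -0.0320 without hnRNPL-deficient library 2, -0.0156 with edgeR and -0.0356 with DESeq2, while its highest value with a library left out was 0.306. The edgeR and DESeq2 fits also lacked hnRNPL-deficient library 2, so all 3 turns came from fits without that library. Whether the tool added to this was not tested.

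With the thresholds tightened to an adjusted p of 0.05 and 2-fold, 610 genes were higher and 216 lower, and 1 cytokine gene, *Il10*, was called lower instead of 3, since *Lta* missed the fold and *Ccl3* the adjusted p. Under those thresholds the receptor list had 0 higher and 1 lower, the other cytokines 1 and 1, and the stability factors (lower), transcription factors (higher) and shedding genes (lower) 0 each. Receptors called higher were 1 with a filter at a mean of 50, with no filter and with quantile normalization, and 0 with DESeq2. Other cytokines called higher were 1 with a pseudocount of 5, a filter at a mean of 1, no filter, quantile normalization, edgeR and DESeq2, and those called lower were 1 with equal totals and with quantile normalization. Stability factors called lower were 0 with quantile normalization, and transcription factors called lower were 1 with edgeR and with DESeq2. Both of these tools ran without hnRNPL-deficient library 2. With that library left out, limma also gave 0 receptors higher, 1 other cytokine higher and 1 transcription factor lower. On the same libraries edgeR gave 2 receptors higher, so for receptors the count differed between tools. For other cytokines higher and transcription factors lower, limma, edgeR and DESeq2 gave the same counts without that library. What part the tool had in each count was not tested further.

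When each library was left out, between 830 and 1111 genes were higher and between 478 and 696 lower, both lowest without WT library 3. The cytokine genes called higher ranged from 1 to 2 and lower from 2 to 3. Receptors ranged from 0 to 2 higher and from 2 to 3 lower, other cytokines from 1 to 2 each way, stability factors from 0 to 1 lower, transcription factors from 0 to 1 each way and shedding genes from 0 to 1 lower. The ratios kept their sign, at 1.46 to 1.66 for *Ltb/Lta*, 0.37 to 0.49 for *Tnf/Lta*, -0.46 to -0.14 for *Ebi3/Il12a* and -3.326 to -2.602 for *Il10/Il6* (log2).

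The replicate numbers are only numbers in the labels. Deviations from the group means of same-numbered libraries correlated at 0.429, 0.320 and 0.0663. Each hnRNPL-deficient library correlated best with the WT library of its number. For hnRNPL-deficient libraries 2 and 3, WT library 3 (0.305) and WT library 1 (0.0501) came close. WT library 3 itself correlated best with hnRNPL-deficient library 2. The labels state no pairing, so the main fit took none, and whether libraries of the same number shared a batch was not tested. With the replicate block 1755 genes were called higher and 1018 lower, with 1 higher and 3 lower among the cytokine genes, 2 higher and 3 lower among receptors and 2 higher and 3 lower among other cytokines. Depth limits *Ccl4*, *Ccl3* and *Il12a*, which had no more than 70 recovered reads in any of 5 libraries.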
